A study of Mus musculus with 4 samples.

Results

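The cells described here are upper hair follicle cells of mouse epidermis, as marked by the keratin gene Krt79, in the 2 single-cell libraries taken 1 week after tamoxifen dosing. They were chosen on measured values. A barcode was a member when it held 2000 or more gene UMIs (unique molecular identifiers, each counting 1 captured RNA molecule), 15% or fewer UMIs of mitochondrial (mt-) genes, at least 2 Krt79 UMIs making up 5 or more per 10,000, no UMI of the leukocyte gene Ptprc, and fewer than 20 UMIs per 10,000 of the sebocyte enzyme gene Scd1. The rule found 4922 members among the 43452 barcodes of the 1-week libraries, and the 4 libraries of the series hold 109216 barcodes. Of these members 2220 came from the control library and 2702 from the experimental library.

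The study followed the epidermis after loss of ΔNp63, the shorter form of the transcription factor p63 that basal keratinocytes mainly make from the gene Trp63. Control mice were DNp63fl/fl, and experimental mice were DNp63fl/fl;K14-CreT2, in which the promoter of the basal keratin gene Krt14 drives a Cre recombinase that acts once tamoxifen is given. Both genotypes received tamoxifen by gavage, 200 mg/kg daily for 5 days, and were 2 to 17 months old with the sexes balanced. Skin was digested in 0.25% trypsin, either overnight at 4 °C or at 37 °C, and the labels do not give the age, sex, digestion or number of animals behind each library. There was 1 library per group at 1 week, so no test could be made and no p-value is given. Intervals below are exact 95% intervals that cover counting error only, not the spread between mice.

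The upper follicle comprises the infundibulum, which opens onto the skin surface, the isthmus, and the junctional zone around the duct of the sebaceous gland. Its suprabasal cells line the hair canal, and they express Krt79 together with cystatin E/M (Cst6), an inhibitor of lysosomal cysteine proteases, and the beta-defensin Defb6, an antimicrobial peptide. Basal cells in the isthmus and junctional zone carry Lrig1 and Plet1, and the transcription factor Gata6 marks the duct lineage. After wounding, follicle cells can move into the surface epidermis.

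Krt79 lies at chr15:101929332-101940324 on the minus strand of GRCm38, Cst6 at chr19:5344705-5349574 on the minus strand, Defb6 at chr8:19225478-19228209 on the plus strand, and Trp63 at chr16:25683763-25892102 on the plus strand. The identifiers of all 4 genes in the count files were those of the GENCODE annotation.

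The 1-week control library held 25039 barcodes and 88903603 UMIs, and the experimental library held 18413 barcodes and 68191870 UMIs. The UMI and mt- limits left 10092 and 6255 barcodes. Members had a median of 4855 UMIs in the control and 3042 in the experimental library. The 1-week libraries shared 661 barcode sequences, of which 10 were members in both.

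The rule's share of barcodes was 22.0% (21.2 to 22.8) in the control library and 43.2% (42.0 to 44.4) in the experimental library. The Krt79 level of the shallowest barcodes moved with this share. In the 10% of barcodes with the fewest UMIs, Krt79 made up 4.16 per 10,000 UMIs in the control and 21.3 per 10,000 in the experimental library. The rule's limit of 5 per 10,000 and 2 UMIs was met by 4.31% of those control barcodes and by 54.3% of those experimental barcodes, whose median depths were 567 and 1101 UMIs. Among barcodes with 2 or more Ptprc UMIs, which are leukocytes by that gene, it was met by 18 of 261 in the control (6.90%, 4.14 to 10.7, median 4602 UMIs) and by 17 of 127 in the experimental library (13.4%, 7.995 to 20.6, median 5914 UMIs). In the lowest-UMI barcodes the 2-UMI part of the limit asked for a higher Krt79 level in the shallower control ones. The shares of 4.31% and 54.3% are thus not at an equal limit. How much of the members' share at low Krt79 comes from free RNA was not tested.

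The other 2 markers of the label did not follow Krt79 evenly through the members. Among control members, Cst6 stood at 2038 CPM (gene UMIs per 1000000 summed UMIs) in barcodes with Krt79 of 5 to under 10 per 10,000 and at 25672 CPM in those of 80 to under 160. Among experimental members the same strata held 2626 and 19062 CPM. Defb6 went from 618 to 5368 CPM in the control and from 382 to 1842 CPM in the experimental library. The experimental barcodes of 40 to under 80 per 10,000 still had Cst6 at 8615 CPM, against 17302 CPM in the control. Just outside the rule's limit, at 4 to under 5 per 10,000, were 146 control and 65 experimental barcodes with Cst6 at 21.0 and 7.03 per 10,000, and just inside it, at 5 to under 6, were 169 and 50 barcodes with Cst6 at 20.003 and 23.0 per 10,000.

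**Figure D1:**
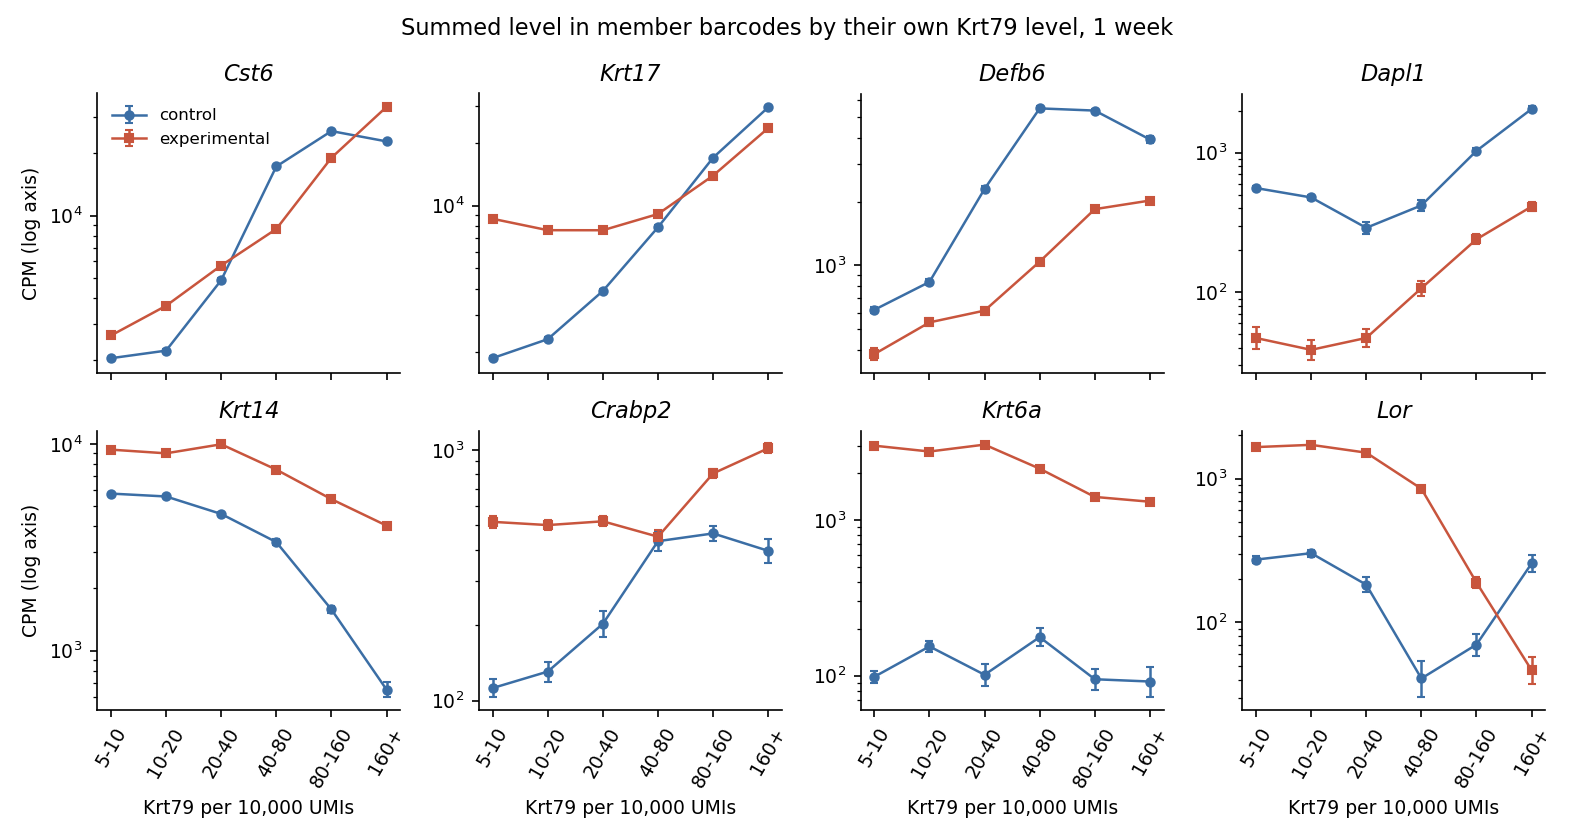
Summed CPM (log axis) of 8 genes in member barcodes, split by the barcodes' own Krt79 level per 10,000 UMIs, in the 1-week control (circles) and experimental (squares) libraries, with exact counting intervals. Cst6 climbed from 2038 to 22881 CPM in the control and from 2626 to 33626 CPM in the experimental library between the lowest and the highest stratum, while Lor went from 1655 to 46.5 CPM in the experimental library.

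Members with much Krt79 thus carried the other 2 markers at a high level, and experimental members under 20 per 10,000 carried them at a level near that of the library's lowest-UMI barcodes. The lowest-UMI barcodes had Cst6 at 1001 CPM in control and 3572 CPM in experimental barcodes, and Defb6 at 356 and 469 CPM. Experimental members of 5 to under 10 and 10 to under 20 per 10,000 had Cst6 at 2626 and 3658 CPM, while the control members of those strata, at 2038 and 2218 CPM, stood above their lowest-UMI barcodes. Members under 80 per 10,000 made up 84.9% of the control members and 84.3% of the experimental members, and in them Cst6 stood at 40.7 and 49.5 per 10,000 against 248 and 252 above that line. For this reason the biology below is described in the members with Krt79 of 80 or more per 10,000, called Krt79-high members here, a limit set after seeing these data, and for genes described by their ratio the value over all members is also given where it lies on the other side of 2-fold. There were 335 such members in the control library (3.32% of the barcodes within limits, 2.98 to 3.69) and 423 in the experimental library (6.76%, 6.15 to 7.41). The gap of 3.44 percentage points was 7.35 among barcodes of 4000 or more UMIs. Their median depth was 7256 and 8957 UMIs, and no barcode sequence was Krt79-high in both libraries. That limit was met by 5 of 2504 and 24 of 1841 lowest-UMI barcodes, and by 3 of 261 and 2 of 127 leukocyte barcodes. Just below the line, at 60 to under 80 per 10,000, were 92 barcodes in each library with Cst6 at 199 per 10,000 in the control and 127 per 10,000 in the experimental library, and just above it, at 80 to under 100, were 71 and 72 barcodes with Cst6 at 196 and 137 per 10,000.

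Trp63, the targeted gene, was lower in the experimental members. Over all members it stood at 361 CPM in control and 123 CPM in experimental barcodes, a log2 ratio of -1.56 (-1.63 to -1.48). In Krt79-high members it was 203 and 82.6 CPM (-1.30, -1.49 to -1.10), and in keratinocytes with no Krt79 UMI 456 and 154 CPM (-1.56). The ratio in Krt79-high members was under 2-fold, at -0.85, when each was thinned to 2000 UMIs, and at -0.94 without the barcodes of highest doublet score. After thinning every Krt79-high member to 2000 UMIs, 32.2% of control and 17.0% of experimental members held a Trp63 UMI (64.2% and 35.7% without thinning), and the leukocyte barcodes held one in 24.1% and 8.66% (39.5% and 20.5% without thinning). The count is per gene, so it neither separates ΔNp63 from the longer form nor shows whether the remaining UMIs come from outside the deleted part.

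Across all members, 161 of the 3328 genes with 50 CPM or more in at least 1 library were 2-fold or more higher in the experimental library, which is 4.84%, and 74 were 2-fold or more lower, which is 2.22%. In Krt79-high members 115 of 3146 such genes were 2-fold or more higher (3.66%) and 47 lower (1.49%). The median log2 ratio over these genes was 0.03 over all members and also 0.03 in Krt79-high members. Lists below count genes with 10 or more UMIs over both libraries and no CPM floor. Of all such genes 8.6% were 2-fold or more higher and 5.58% lower over all members, and 8.17% and 3.61% in Krt79-high members, and the counts for lists are read against these shares.

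Most genes that mark the upper follicle stayed within 2-fold between the libraries' Krt79-high members, and Defb6 was lower in the experimental ones. Of the 11 listed genes of the upper follicle with 10 or more UMIs, 1 was 2-fold or more lower, Defb6, and the median log2 ratio was 0.16. Cst6 was at 24761 CPM in control and 25207 CPM in experimental barcodes (log2 ratio 0.03, 0.01 to 0.04). That ratio pooled opposite gaps. Cst6 was lower in experimental barcodes at Krt79 of 80 to under 160 per 10,000, and higher at 160 and over. Keratin 17 (Krt17), a keratin of the follicle's outer layers that is also made in injured epidermis, was at 21045 and 17944 CPM (-0.23, -0.25 to -0.21). Single barcodes overlapped widely for both genes, with a median Cst6 of 110 per 10,000 in the control and 145 in the experimental library, and a median Krt17 of 177 and 159. The surface protein gene Plet1 was at 1499 and 1876 CPM (0.32), Gata6 at 62.0 and 92.2 CPM (0.57), Lrig1 at 63.5 and 81.5 CPM (0.36), and the defensin Defb1 at 314 CPM in both (0.00). The small proline-rich gene Sprr1a, whose product is cross-linked into the cornified envelope, was at 24021 and 26726 CPM (0.15).

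Defb6 stood at 4897 CPM in control and 1918 CPM in experimental Krt79-high members, a log2 ratio of -1.35 (-1.39 to -1.31). The whole distribution over barcodes was lower, with the 10th percentile, median and 90th percentile at 8.22, 44.3 and 125 per 10,000 in the control and at 2.85, 18.8 and 48.7 in the experimental library, and the 2 distributions overlapped. Nearly all barcodes still held the gene: at 2000 UMIs each, 95.8% of control and 87.9% of experimental Krt79-high members had a Defb6 UMI, against 8.81% and 12.6% of leukocyte barcodes (98.2%, 96.5%, 14.2% and 18.1% without thinning). Its ratio kept this size in every alternative run within Krt79-high members, from -1.39 to -1.30. In Krt79-free keratinocytes Defb6 was at 64.0 and 138 CPM, higher in the experimental library (1.11). Both levels stood below that of the same library's lowest-UMI barcodes, where Defb6 was also higher in the experimental library. How far such RNA sets the keratinocyte ratio was not tested.

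Crabp2, which carries retinoic acid to the nucleus, was at 442 CPM in control and 895 CPM in experimental Krt79-high members (log2 ratio 1.02, 0.92 to 1.11). It dropped below 2-fold in 6 of 9 alternatives run within Krt79-high members, with a lowest log2 ratio of 0.75. Of the 10 measured genes for retinoid handling, 3 were 2-fold higher and 0 lower, with a median of 0.16, and the receptor genes Rarg (0.04) and Rxra (-0.09) were among those between.

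**Figure D2:**
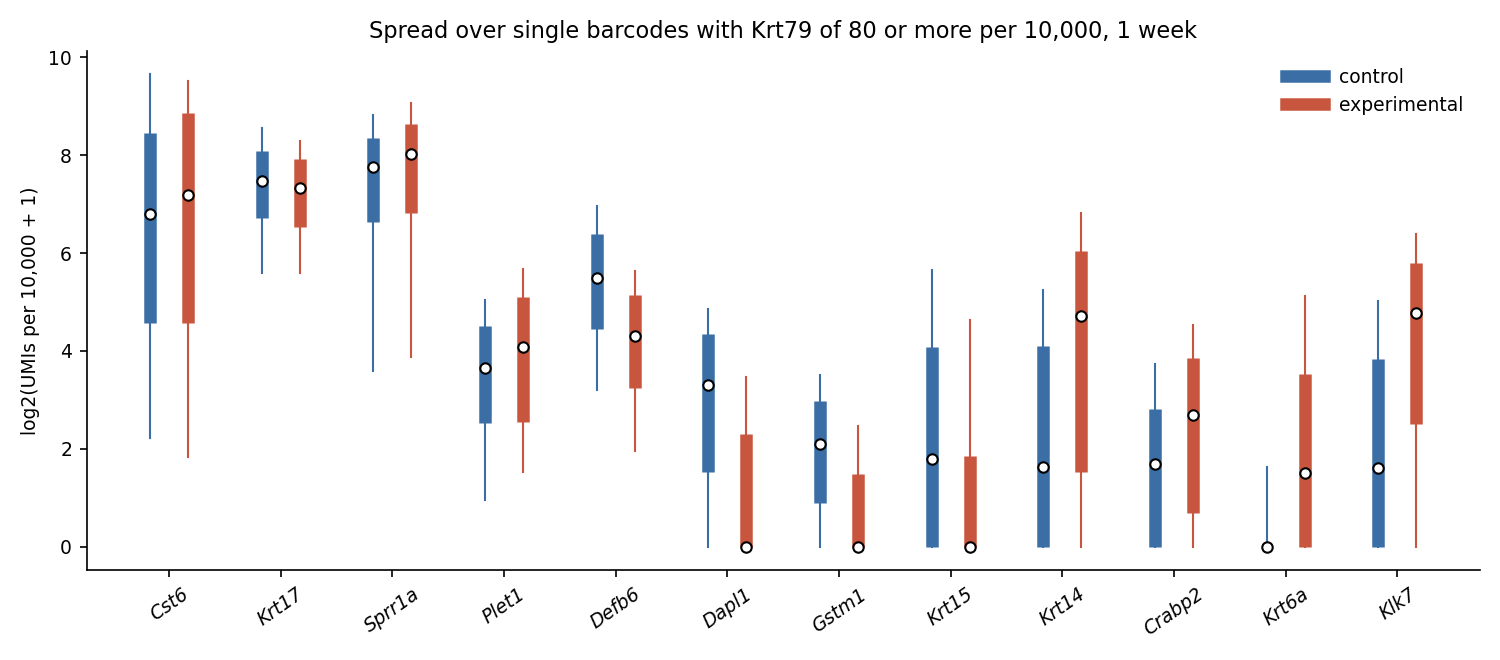
Level of 12 genes over single Krt79-high member barcodes at 1 week, as log2(UMIs per 10,000 + 1), in the control (335 barcodes) and experimental (423 barcodes) libraries. Circles are medians, thick bars the middle 50% and thin lines the 10th to 90th percentile of barcodes. The medians of Cst6 and Krt17 lie close together, that of Krt14 is 2.07 per 10,000 in the control and 25.4 in the experimental library, and that of Dapl1 is 8.89 and 0.

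Keratin 14 (Krt14), the type I keratin of basal cells that is normally switched off as cells leave the basal layer, was higher in experimental Krt79-high members, while most other basal genes were not. Krt14 was at 1278 CPM in control and 4826 CPM in experimental barcodes, a log2 ratio of 1.92 (1.87 to 1.97), and over all members the ratio was under 2-fold, at 0.815. The median barcode held 2.07 per 10,000 in the control and 25.4 per 10,000 in the experimental library. The gap was wider at higher Krt79, with 1583 and 5408 CPM (1.77) at 80 to under 160 per 10,000 and 648 and 4028 CPM (2.64) at 160 and over. Krt14 was also common in other barcodes, at 5829 and 8478 CPM in the lowest-UMI barcodes and at 5441 and 2649 CPM in leukocyte barcodes. At 2000 UMIs each, 47.8% of control and 72.3% of experimental Krt79-high members held a Krt14 UMI, beside 39.8% and 42.5% of leukocyte barcodes (201 of 335, 353 of 423, 46.4% and 49.6% without thinning).

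Its basal partner keratin 5 (Krt5) was at 554 and 509 CPM in Krt79-high members (-0.12, -0.22 to -0.03), and 10 barcodes held 71.8% of the control UMIs. Without the barcodes of highest doublet score its log2 ratio was 1.57. Keratin 15 (Krt15), found in basal and bulge cells, was at 1634 and 669 CPM (-1.29, -1.36 to -1.22), which shrank to between -0.92 and -0.83 when barcodes of high doublet score were left out, when barcodes were thinned or when each barcode had equal weight.

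Genes that anchor basal cells to the basement membrane were lower or stayed within 2-fold. Of the 12 listed basal and adhesion genes 4 were 2-fold lower (Col17a1, Itgb4, Lamb3 and Dst) and 1 was higher (Krt14), with a median log2 ratio of -0.52. Col17a1, the hemidesmosomal collagen, was at 109 and 27.6 CPM (-1.97, -2.29 to -1.66). Dystonin (Dst), which links keratin to hemidesmosomes, was at 208 and 63.5 CPM (-1.71, -1.92 to -1.502). Without high doublet scores Col17a1 was at -1.23 and Dst at -1.001. Integrin beta 4 (Itgb4) was at 38.0 and 14.2 CPM (-1.43, and -0.69 without high doublet scores), while its partner Itga6 was at 136 and 126 CPM (-0.11). All 4 genes stood higher in the lowest-UMI barcodes, Col17a1 for one at 1125 and 276 CPM, and how far such RNA sets these low values was not tested. The list's median was 0.07 without high doublet scores.

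The keratins of wounded epidermis were higher. All 3 listed wound keratins were 2-fold or more higher in Krt79-high members. Keratin 6a (Krt6a) was at 93.7 CPM in control and 1368 CPM in experimental barcodes (log2 ratio 3.87, 3.69 to 4.05), and its ratio lay between 3.35 and 3.89 in the alternatives. At least 1 UMI was found in 13.4% of control and 57.2% of experimental barcodes, or 8.66% and 44.4% after thinning, against 4.21% and 20.5% of leukocyte barcodes after thinning. Keratin 16 (Krt16), the usual partner of keratin 6, was at 582 and 1331 CPM (1.19, 1.11 to 1.27), and this dropped below 2-fold in 4 of 9 alternatives, to 0.79 at the lowest. Krt6b had 0 UMIs in the control and 707 in the experimental Krt79-high members, at least 146-fold higher against a floor of 3 UMIs summed over the control members. Those UMIs sat in few cells, since 10 barcodes held 96.5% of them. The log2 ratio with 0.5 UMI added went from 9.77 to 5.41 without high doublet scores. Krt6a and Krt6b are near-identical copies whose reads may not be told apart.

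**Figure D3:**
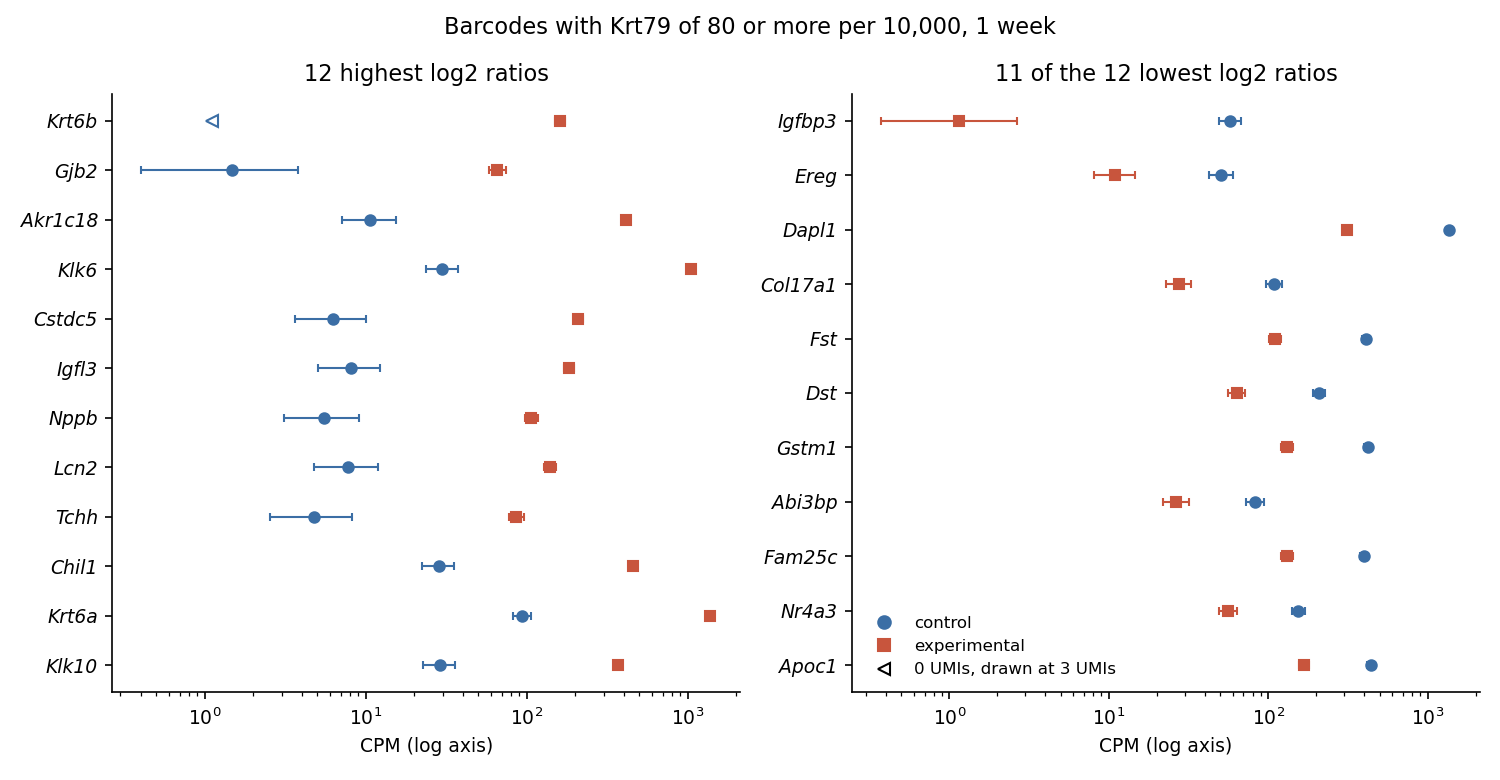
The 12 highest log2 ratios and 11 of the 12 lowest in Krt79-high members among genes with 50 CPM or more in at least 1 library, as summed CPM (log axis) in the control (circles) and experimental (squares) 1-week libraries with exact counting intervals. The open triangle is a gene with 0 UMIs drawn at 3 UMIs. Klk6 goes from 29.9 to 1040 CPM and Dapl1 from 1363 to 312 CPM.

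Kallikrein-related peptidases are serine proteases that loosen contacts between cornified cells, and the 4 described here, Klk5 and Klk7 from the cornified list and Klk6 and Klk10 from the 12 highest ratios, were 2-fold or more higher in the experimental Krt79-high members. Klk6 was at 29.9 CPM in control and 1040 CPM in experimental barcodes (log2 ratio 5.12, 4.80 to 5.46). It was found in 5.67% of control and 36.4% of experimental barcodes (4.48% and 26.7% after thinning, beside 0.383% and 7.09% of leukocyte barcodes). Klk7, the chymotrypsin-like member that cuts corneodesmosomes, was at 1199 and 3906 CPM (1.70, 1.65 to 1.76) with a median of 2.05 per 10,000 in control and 26.5 in experimental barcodes. Klk10 was at 28.8 and 367 CPM (3.67, and 2.84 without high doublet scores) and Klk5 at 160 and 374 CPM (1.22, and 0.96 without high doublet scores). Their inhibitor Spink5 was at 1433 and 1041 CPM (-0.46). In the experimental library Klk6, Klk7 and Klk10 stood at 194%, 249% and 143% of their level in the lowest-UMI barcodes.

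The rest of the granular and cornified programme differed between the rule's members and the Krt79-high ones. Over all members 14 of 20 listed genes were 2-fold or more higher, with a median log2 ratio of 2.18, and in Krt79-high members 7 of 18 were, with a median of 0.32. Loricrin (Lor), the main protein of the cornified envelope, was at 225 and 1129 CPM over all members (2.33) but at 131 and 129 CPM in Krt79-high members (-0.02, -0.22 to 0.17). Hornerin (Hrnr) was likewise at a log2 ratio of 1.94 over all members and -0.36 in Krt79-high members, where it was at 2.15 without high doublet scores. Involucrin (Ivl), an envelope precursor, was lower in both, at 436 and 259 CPM in Krt79-high members (-0.75, and -0.09 without high doublet scores) and at 238 and 115 CPM over all members (-1.05). In the lowest-UMI barcodes the same list had 12 of 20 genes 2-fold or more higher with a median of 1.72, and Lor there was at 1617 and 3215 CPM.

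Within Krt79-high members the list's median also turned on which barcodes were kept. It was 1.80 without the barcodes of highest doublet score, 1.54 after thinning to 2000 UMIs and -0.37 among barcodes of 4000 or more UMIs. Lor without high doublet scores had a log2 ratio of 2.29. A few barcodes decided these values, since the 10 richest held 95.8% of the control and 78.1% of the experimental Lor UMIs. Besides Klk7 and Klk5, a gene of the list that was higher with UMIs spread over more barcodes was Asprv1, the protease that processes filaggrin, at 359 and 1491 CPM (2.06, 1.958 to 2.15). The transglutaminase gene Tgm1 stayed within 2-fold, at 157 and 232 CPM (0.57). Caspase 14 (Casp14) was at 17.7 and 65.7 CPM (1.89, and 0.67 without high doublet scores). Filaggrin (Flg) was at 18.8 and 167 CPM (3.15), with UMIs in 4 control and 38 experimental barcodes, and its log2 ratio was 6.11 without high doublet scores and 1.93 without members holding markers of other cells.

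**Figure D4:**
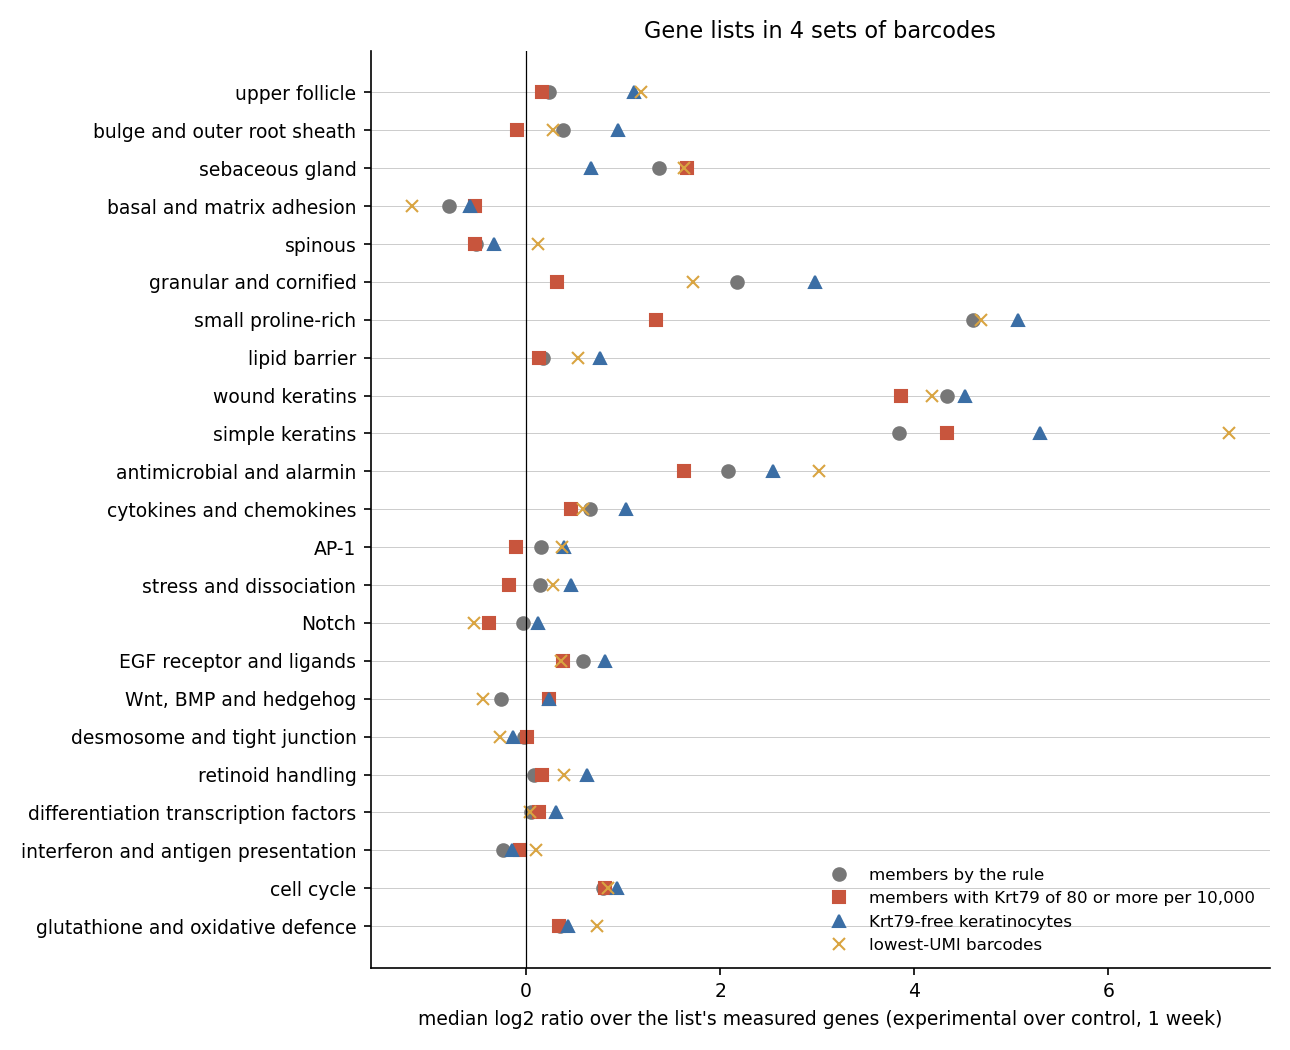
Median log2 ratio (experimental over control, 1 week) over the measured genes of each of 23 gene lists in all members, in Krt79-high members, in Krt79-free keratinocytes and in the lowest-UMI barcodes. The granular and cornified list lies at 2.18 over all members, 0.32 in Krt79-high members, 2.98 in Krt79-free keratinocytes and 1.72 in the lowest-UMI barcodes, while the basal and adhesion list lies below 0 in all 4.

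Spinous genes mostly stayed within 2-fold, as 7 of the 9 listed did. Keratin 10 (Krt10), the type I keratin of early differentiation, was at 1475 and 876 CPM in Krt79-high members (-0.75, -0.82 to -0.69) and at a log2 ratio of -1.91 over all members. Krtdap, a secreted protein of spinous cells, was at 4803 and 3024 CPM (-0.67), Dsc1 at 574 and 382 CPM (-0.59), Dsg1a at 686 and 475 CPM (-0.53) and suprabasin (Sbsn) at 6883 and 5418 CPM (-0.35). Of the 9 genes 1 was 2-fold lower (Mt4, with 23 control UMIs and 0 experimental UMIs) and 1 was higher (Krt1), with a median of -0.53. Keratin 1 (Krt1) was at 164 and 397 CPM (1.27), but 10 barcodes held 91.8% of its experimental UMIs and the log2 ratio was 0.10 without high doublet scores.

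Other genes among the 12 highest log2 ratios in Krt79-high members included secreted and enzyme genes. Chil1, a chitinase-like lectin, was at 28.4 and 459 CPM (4.01, 3.68 to 4.36) with UMIs in 8.96% of control and 50.6% of experimental barcodes. The steroid dehydrogenase gene Akr1c18 was at 10.7 and 415 CPM (5.28, 4.75 to 5.86). Lipocalin 2 (Lcn2), which withholds iron from bacteria, was at 7.75 and 139 CPM (4.17, 3.54 to 4.87). These 3 stood at 321%, 116% and 115% of their level in the experimental library's lowest-UMI barcodes. The connexin gene Gjb2 went from 4 to 288 UMIs (5.48), trichohyalin (Tchh) from 13 to 378 (4.17), Igfl3 from 22 to 800 (4.49), Cstdc5 from 17 to 917 (5.06) and the natriuretic peptide gene Nppb from 15 to 467 (4.27). In each of these 5 genes 10 barcodes held between 56.9% and 88.7% of the experimental UMIs. Without high doublet scores the log2 ratio was 4.13 for Gjb2, 2.56 for Tchh, 6.16 for Cstdc5, 3.50 for Nppb and 4.07 for Akr1c18, and thinning gave 3.20 for Gjb2, 3.76 for Akr1c18 and 3.33 for Lcn2. Without members holding markers of other cells Cstdc5 was at 3.93 and Nppb at 6.17.

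Among the 12 lowest, Dapl1, a gene of differentiating epithelial cells, was at 1363 CPM in control and 312 CPM in experimental barcodes (log2 ratio -2.13, -2.22 to -2.04). The median barcode held 8.89 per 10,000 in the control and 0 in the experimental library, and after thinning 67.5% and 28.4% of barcodes held a UMI, beside 11.9% and 0.787% of leukocyte barcodes (76.4%, 48.0%, 26.4% and 7.87% without thinning). Follistatin (Fst), which binds activin, was at 410 and 111 CPM (-1.89, -2.05 to -1.73), while over all members it stayed within 2-fold, at -0.35. The glutathione transferase gene Gstm1 was at 424 and 131 CPM (-1.69, -1.84 to -1.55), with medians of 3.30 and 0 per 10,000. Apoc1, an apolipoprotein gene, was at 441.4 and 167 CPM (-1.40, -1.53 to -1.27), with medians of 3.93 and 1.16 per 10,000. These 4 ratios kept their direction and stayed beyond 2-fold in all 9 alternatives run within Krt79-high members.

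The insulin-like growth factor binding protein gene Igfbp3 had 156 control and 5 experimental UMIs in Krt79-high members (-5.66, -7.30 to -4.40). It was much more abundant in other barcodes, at 806 and 142 CPM in the lowest-UMI barcodes, and 10 barcodes held 93.6% of the control UMIs. Its log2 ratio was -4.12 without high doublet scores and -3.71 after thinning. The EGF receptor ligand gene Ereg was at 50.9 and 10.96 CPM (-2.22) with 97.8% of control UMIs in 10 barcodes, at a log2 ratio of 1.10 over all members, and at 0.08 in Krt79-high members without high doublet scores. Fam25c (-1.60), Abi3bp (-1.65) and Nr4a3 (-1.46) were also among the 12, as were Col17a1 and Dst, and Nr4a3 was at -0.82 without high doublet scores.

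Antimicrobial and alarmin genes were split by gene. Of 9 measured in Krt79-high members 6 were 2-fold or more higher and 1 lower, with a median log2 ratio of 1.63 (0.88 without members holding markers of other cells), against 9 and 1 of 12 over all members with a median of 2.08. The calprotectin subunit genes S100a8 (8.49 and 16.7 CPM, 0.97, with 3.99 without high doublet scores and -1.77 without members holding markers of other cells) and S100a9 (8.86 and 32.6 CPM, 1.88) were at log2 ratios of 4.32 and 4.30 over all members, and S100a9 was at 0.58 without high doublet scores and 0.44 without members holding markers of other cells. Secretory leukocyte peptidase inhibitor (Slpi) had 0 control and 69 experimental UMIs in Krt79-high members, at least 14.2-fold higher against the floor of 3 UMIs, and at 15.8 CPM it stood at 6.23% of its level in the experimental library's lowest-UMI barcodes. Simple epithelial keratin 8 (Krt8), a keratin of single-layered epithelia and Merkel cells, had 0 and 212 UMIs, at least 43.7-fold higher, at 18.1% of the lowest-UMI level, and 10 barcodes held 79.7% of it. With 0.5 UMI added, the log2 ratio without high doublet scores was 4.39 for Slpi and 4.47 for Krt8, beside 6.43 and 8.04 with all Krt79-high members. The Merkel cell genes Krt20, Atoh1, Sox2 and Isl1 were at 0 UMIs in Krt79-high members of both libraries.

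Some cytokine genes were at low level in Krt79-high members, such as Tslp, Il1f8 and Il1f9, and others were not. Cxcl16 was at 281 CPM in control and 278 CPM in experimental barcodes, and Il1rn at 110 and 120 CPM. Ccl27a was left out of the 17 measured genes counted below, because its symbol stands on more than 1 gene entry. The entry read here was at 647 and 386 CPM. The type 2 cytokine gene Tslp was at 9.97 and 12.3 CPM (0.31, -0.39 to 1.03), where Krt79-free keratinocytes had 10.8 and 300 CPM (4.80). Over all members Tslp had a log2 ratio of 3.18. The interleukin 1 family genes Il1f8 (1.85 and 15.1 CPM) and Il1f9 (4.06 and 17.1 CPM) were higher on few UMIs, and 5 of 17 measured cytokine and chemokine genes were 2-fold or more higher and 1 lower, with a median of 0.46. Among EGF receptor ligands epigen (Epgn) was at 18.1 and 70.5 CPM (1.963, 1.52 to 2.43) and Hbegf at 272 and 409 CPM (0.59), while the receptor gene Egfr was at 138 and 139 CPM (0.01). Epgn was at 0.95 without members that held markers of other cells, at 2.83 after thinning and at 5.57 without high doublet scores, and Il1f9 was at 4.63 in the last of these.

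The small proline-rich genes followed the cornified list. Over all members 12 of 13 were 2-fold or more higher with a median log2 ratio of 4.61, and in Krt79-high members 5 of 7 were, with 1 lower and a median of 1.34. Sprr1b was at 29.5 and 268 CPM in Krt79-high members (3.18), with UMIs in 7 control and 59 experimental barcodes. Its log2 ratio was 0.91 without high doublet scores and 1.66 without members holding markers of other cells. Reads of the near-identical Sprr2 copies may not be told apart, so no single Sprr2 value is given.

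Several groups stayed wholly or mostly within 2-fold in Krt79-high members. All 12 lipid barrier genes did (median 0.13), among them the lipoxygenase gene Alox12e at 1537 and 1567 CPM (0.03), Elovl4 (0.18) and the lipid transporter gene Abca12 (-0.15). Of 16 desmosome and tight junction genes 14 did (median 0.01), including desmoplakin (Dsp) at 5646 and 5249 CPM (-0.11), plakoglobin (Jup) at 0.03 and the p63 target Perp at 4461 and 4456 CPM. All 15 differentiation transcription factors did, with Klf4 at 0.31, Grhl3 at 0.33, Cebpb at 0.53, Gata3 at -0.53 and Hopx at -0.86 (median 0.13). The 8 AP-1 genes (median -0.11) and the 12 genes of stress and dissociation (median -0.17) all did. Notch1 was at 117 and 58.7 CPM (-0.996, -1.24 to -0.75), and the 8 Notch genes had a median of -0.38. The list of Wnt, BMP and hedgehog genes had 2 of 17 higher and 1 lower (median 0.23), that of interferon and antigen presentation 1 higher and 1 lower of 11 (median -0.06), that of the bulge and outer root sheath 1 higher and 2 lower of 10 (median -0.10), and that of EGF receptor and ligands 1 higher and 1 lower of 10 (median 0.37).

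The glutathione and oxidative defence list was mixed. Gstm1 and Gstm5 (439 and 212 CPM, -1.05, and -0.82 after thinning) were lower, and the haem oxygenase gene Hmox1 (10.7 and 36.3 CPM, 1.76) was higher. Gpx1 stayed within 2-fold, at 446 and 720 CPM (0.69). Of 15 measured genes 2 were 2-fold higher and 3 lower, with a median of 0.34. Of 17 measured cell cycle genes 8 were 2-fold or more higher and 0 lower (median 0.82), and over all members 6 of 22 were higher. Many had few UMIs, as Mki67 with 9 in control and 44 in experimental Krt79-high members, and the list's median was 0.08 without high doublet scores and 0.05 after thinning. Of 5 measured sebaceous genes 3 were 2-fold higher and 0 lower (median 1.66, and 0.54 after thinning). Mgst1 was at 43.2 and 137 CPM (1.66, and 0.95 after thinning). Cidea was at 1.11 and 18.0 CPM, on few control UMIs. The limit on Scd1 bounds this group from above.

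Compared with Krt79-free keratinocytes of the same libraries, Krt79-high members differed by a log2 ratio of 1 or more for 33 of 3146 genes upward (1.05%) and 137 downward (4.35%), and over all members for 12 of 3328 upward (0.361%) and 78 downward (2.34%). These are differences between 2 ratios that come from the same 2 libraries, and they were not tested. The 170 genes of Krt79-high members numbered 275 without members holding markers of other cells. The keratinocytes were required to hold Krt5, Krt14, Krt1 and Krt10 of 20 or more per 10,000 in sum, so these 4 genes are not compared and Krt1, which was among the 6 highest differences, is left out. There were 5794 and 2057 of them, with median depths of 6774 and 6969 UMIs.

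The genes with the largest downward differences were higher in experimental Krt79-free keratinocytes and less so, or not, in Krt79-high members. Slurp1, a secreted regulator of cornification, went from 2.44 to 389 CPM in Krt79-free keratinocytes (7.32) and from 80.1 to 219 CPM in Krt79-high members (1.45, and 2.13 without high doublet scores). The transporter gene Slc5a8 went from 2.71 to 140 CPM (5.69) in the former and was at 119 and 128 CPM (0.11) in the latter. Cornifelin (Cnfn) was at 81.7 and 725 CPM (3.15) against 621 and 288 CPM (-1.11), and Crct1 at 144 and 1867 CPM (3.70) against 798 and 731 CPM (-0.13). Cnfn and Crct1 were at -0.42 and 1.60 in Krt79-high members without high doublet scores. In each of these 4 genes the control Krt79-high members already stood above the control keratinocytes. Ereg and Klk6 completed the 6 lowest differences.

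**Figure D5:**
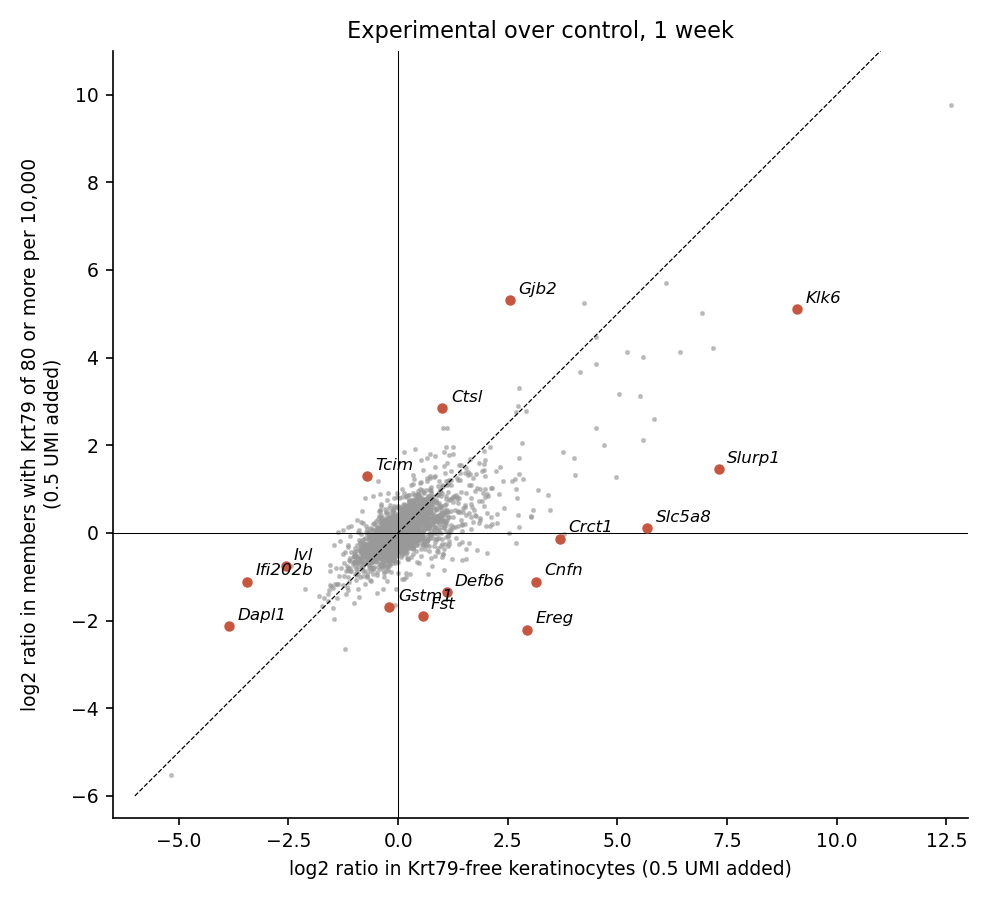
Log2 ratio (experimental over control, 1 week, 0.5 UMI added to each sum) in Krt79-high members against that in Krt79-free keratinocytes, 1 point per gene with 50 CPM or more in Krt79-high members of at least 1 library; the dashed line marks equal ratios. Slc5a8 and Cnfn lie far right of the line, at 5.68 and 3.15 in keratinocytes against 0.10 and -1.11 in Krt79-high members, and Gjb2 and Ctsl lie above it.

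On the other side, the protease gene Ctsl was at 79.7 and 572 CPM in Krt79-high members (2.84, 2.64 to 3.05) and at 152 and 307 CPM in Krt79-free keratinocytes (1.01). The interferon-inducible gene Ifi202b was at 104 and 47.9 CPM (-1.11) against 715 and 65.8 CPM (-3.44), Ivl at -0.75 against -2.57, and Tcim at 41.7 and 103 CPM (1.30) against 142 and 86.6 CPM (-0.72). Ifi202b was at 0.08 in Krt79-high members without high doublet scores. Gjb2 was the highest difference, at 5.48 against 2.55. Defb6, Gstm1 and Fst were lower in Krt79-high members by their own ratios (-1.35, -1.69 and -1.89), beside 1.11, -0.20 and 0.56 in Krt79-free keratinocytes. The Defb6 level in those keratinocytes stood below that of the lowest-UMI barcodes in both libraries.

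Bulge-like barcodes, chosen for no Krt79 UMI and at least 2 of Cd34, Lhx2, Lgr5 and Postn, numbered 1017 in the control and 885 in the experimental library. The bulge holds the stem cells of the lower follicle. In them Krt6a went from 474 to 1135 CPM (1.26), Klk7 from 24.9 to 256 CPM (3.36), Krt14 from 4429 to 5534 CPM (0.32) and Dapl1 from 138 to 43.5 CPM (-1.66). Trp63 was at 500.4 and 299.5 CPM (-0.74). Over the basal and adhesion list their median was 0.02, beside -0.52 in Krt79-high members.

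At 1 day, in libraries made with the 3′ chemistry where the 1-week ones used the 5′ chemistry, 738 control and 426 experimental barcodes met the Krt79-high limits. Levels at 1 day and 1 week are therefore not set against each other, and each ratio stands within its own day. Of the 1-day barcodes within limits, 2.85% (2.65 to 3.05) of control and 1.61% (1.46 to 1.77) of experimental ones were Krt79-high. That gap had the opposite direction to the one at 1 week. Trp63 was at 202 and 101 CPM at 1 day (-1.01, -1.25 to -0.77). Klk6 was at 49.6 and 400.4 CPM (3.01), Akr1c18 at 5.12 and 195 CPM (5.25), Krt6a at 362 and 1024 CPM (1.501) and Asprv1 at 721 and 1961 CPM (1.44) at 1 day, all 2-fold or more higher as at 1 week. Gstm1 was at 236 and 88.9 CPM (-1.41) and Krt15 at 840 and 243 CPM (-1.79). Krt14 (0.40), Defb6 (-0.39), Dapl1 (-0.43) and Fst (-0.43) had the direction of the 1-week ratio at a size under 2-fold. The difference between the days was not tested, since it holds 1 library per group.

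Several genes within 2-fold in Krt79-high members were beyond it over all members. Besides genes whose ratio over all members is given above, such as Lor and Krt10, these included Crct1 (1.73), Slc5a8 (1.32), Hbegf (1.2003) and Tgm1 (1.19) upward. Downward they included Gata3 (-1.10) and Dsg1a (-1.05). Others were beyond 2-fold in Krt79-high members and within it over all members. Besides Krt14 and Fst, given above, they included Cnfn (0.94), Tcim (0.17), Mki67 (0.36), Krt1 (-0.52), Gstm5 (-0.51) and Itgb4 (-0.87). Of these, Cnfn and Krt1 went in the opposite direction over all members. Krt17 (0.75), Spink5 (0.61) and Dsc1 (0.38) were within 2-fold in both, and above 0 only over all members.

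Markers of other cells differed by type between Krt79-high members and the rest. Langerhans cell markers made up 0.561 per 10,000 UMIs in control and 0.628 in experimental Krt79-high members, against 8.22 and 8.25 in members under 80 per 10,000, and at least 2 of their UMIs were held by 54.2% and 41.2% of the latter. Fibroblast markers were at 0.244 and 0.107 per 10,000 in Krt79-high members and T cell markers at 0.517 and 0.292. At least 2 melanocyte UMIs were held by 0.597% of control and 4.73% of experimental Krt79-high members, and by 2.60% and 2.06% of members under 80 per 10,000. At least 2 T cell UMIs were held by 9.25% and 6.38% of Krt79-high members and by 16.8% and 5.22% of the others. At least 2 UMIs of the Merkel cell list were held by 0 of 335 control and 25 of 423 experimental Krt79-high members. In the experimental members all UMIs of this list were of Krt8 and Krt18, since its genes Krt20, Atoh1, Sox2 and Isl1 had 0. The part of these barcodes in the ratios was not tested. The 5 smooth muscle markers had UMIs for 1 gene in control and 4 genes in experimental Krt79-high members. Doublet scoring placed 31.3% of control and 29.1% of experimental Krt79-high members among the barcodes to leave out, and 50.0% and 37.2% of all members. Among all barcodes of each library the shares were 20.03% and 14.73%, set in advance by the number of barcodes. Among Krt79-free keratinocytes they were 23.21% and 24.89%. Members were thus left out more often than barcodes of their library at large.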

How the data were processed

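Counts per gene and barcode had been made by the authors with Cell Ranger 5.0.1, per the file headers, against mm10, per the submitters' processing notes, which also name Seurat. The deposited values are UMI counts, not normalized, and the 1-week matrices held only gene features and barcodes of 500 or more UMIs in the control and 1059 or more in the experimental library. Depth was set by the UMI totals, and a floor of 3 UMIs stands for counts of 0.

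Here UMIs were summed over member barcodes per library, scaled to CPM, and compared as log2 ratios with conditional exact binomial 95% intervals, and shares with exact Clopper-Pearson intervals (Python 3.11.15, numpy 2.4.6, scipy 1.17.1). Named genes were those of the fixed lists, the 12 highest and 12 lowest log2 ratios with 0.5 UMI added among genes of 50 CPM or more, and the 6 highest and lowest differences from Krt79-free keratinocytes, leaving out mt-, ribosomal, haemoglobin, unnamed and sex-linked genes. The members and lists were chosen with earlier results of these data known, and the limits of 40 and 80 Krt79 UMIs per 10,000 were added after seeing the data. The Scrublet method, written anew, scored doublets at 0.8% per 1000 barcodes, and was used only as an alternative, as was TMM scaling, likewise written anew. Genes in the listed marker sets of other cells were counted per barcode. Tested on simulated counts with 200 changed genes, the ratio code called 100% of them in all members and in Krt79-high members. The planted changes all lay beyond the 2-fold line and the counts varied by counting error only. The test therefore could not show how calls fare where few barcodes hold most UMIs. Gene positions are from GENCODE M21 on GRCm38. A few genes that these rules name are not reported here.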

Additional observations from a re-analysis of the deposited data

How the results depend on the processing

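With 1 library per group, no replicate could be left out. No paired analysis was possible because each group had 1 library. The experimental library's share of members exceeded the control's by 21.2 percentage points, and by 11.53 at 4000 or more UMIs, 24.96 without high doublet scores, 23.46 without members holding markers of other cells, 24.23 with no limit on Scd1, and 6.724 and 3.443 at Krt79 of 40 and 80 or more per 10,000. Genes 2-fold or more higher and lower numbered 161 and 74 with the 50 CPM floor, 1236 and 802 with no CPM floor, and 50 and 33 with a floor of 200 CPM, each over its own set of genes tested, and lower genes numbered 42 and 47 at Krt79 of 40 and 80. Genes differing from Krt79-free keratinocytes numbered 90, and 157 without high doublet scores, 199 without markers of other cells, 1540 and 32 with no and a 200 CPM floor, and 156 and 170 at Krt79 of 40 and 80. The Trp63 log2 ratio of -1.557 was -1.350 with equal weight per member, -1.369 thinned, -1.655 at 4000 UMIs, -1.230 without high doublet scores, and -1.371 and -1.297 at Krt79 of 40 and 80. Log2 ratios of single genes were followed through these settings only for a chosen set of named genes, not for all genes tested. Among those of the set 2-fold or more apart over all members, the sign changed at Krt79 of 40 for Ereg (-1.034) and Tesc (0.7601). At 80 it changed for Crct1 (-0.1275), Ereg (-2.207), Gsta4 (-0.2079), Hrnr (-0.3579), Lce1m (-0.3189), Lor (-0.02361) and Sema3d (0.2578). All of these but Ereg were then within 2-fold. The cause was not tested. Genes under 50 CPM rest on few UMIs in Krt79-high members.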
